A study of Mus musculus with 2 samples.

Results

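The hormone receptors and lineage factors of the mammary gland were read in RNA of 4T1 cells, a mouse mammary carcinoma cell line of BALB/c origin that metastasizes to the lung. The group was a named list of 9 genes: the receptors Esr1, Pgr and Prlr, the luminal factors Gata3 and Foxa1, the ETS factors Elf5 and Ehf, the basal factor Trp63 and the progenitor receptor Kit. All 9 were found by symbol among the 21911 genes with a value. Both groups were this cell line, for which the labels name no engineered allele or transgene, cultured for 48 h in the presence of PBS or of potassium oxalate. The dose of oxalate was labelled as 20 mM in the treatment description and as 20 µM in the sample description. The paper that reported the data gives 20 µM for the sequenced cells. The comparison served to find genes that respond to oxalate in breast cancer cells. Since each condition was 1 library, no spread between replicates is known, no test of oxalate against PBS could be made, and every difference given here is one between 2 libraries. The 2 libraries came from 1 cell line grown alone, so they hold no lactating, hormone-stimulated or normal mammary tissue for comparison.

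In the mammary gland the epithelium is made of an inner luminal layer and an outer basal layer. Hormone-sensing luminal cells carry the oestrogen and progesterone receptors together with FOXA1 and GATA3, which open and hold luminal enhancers. Luminal progenitors are known for KIT and ELF5, and ELF5 with the prolactin receptor drives the milk-secreting alveolar cells. The basal layer is marked by p63, encoded by Trp63, and by keratins 5 and 14. Mammary tumours are placed as luminal, progenitor-like or basal from these same genes.

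In 4T1 cells 5 of the 9 genes were above 0 in both libraries and 4 were listed at 0 in both. Gata3 and Ehf were the highest, Foxa1 and Esr1 were low, Trp63 was very low, and Pgr, Prlr, Elf5 and Kit had no value above 0. This order was the same with PBS and with oxalate. None of the genes differed 2-fold between the libraries on the scale used here. The unit is FPKM, the number of fragments divided by transcript length and by the total of the library, which allows levels of different genes to be compared. Of all genes, 36.4% were listed at 0 in both libraries and 46.9% had a mean of at least 1 FPKM.

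**Figure D1:**
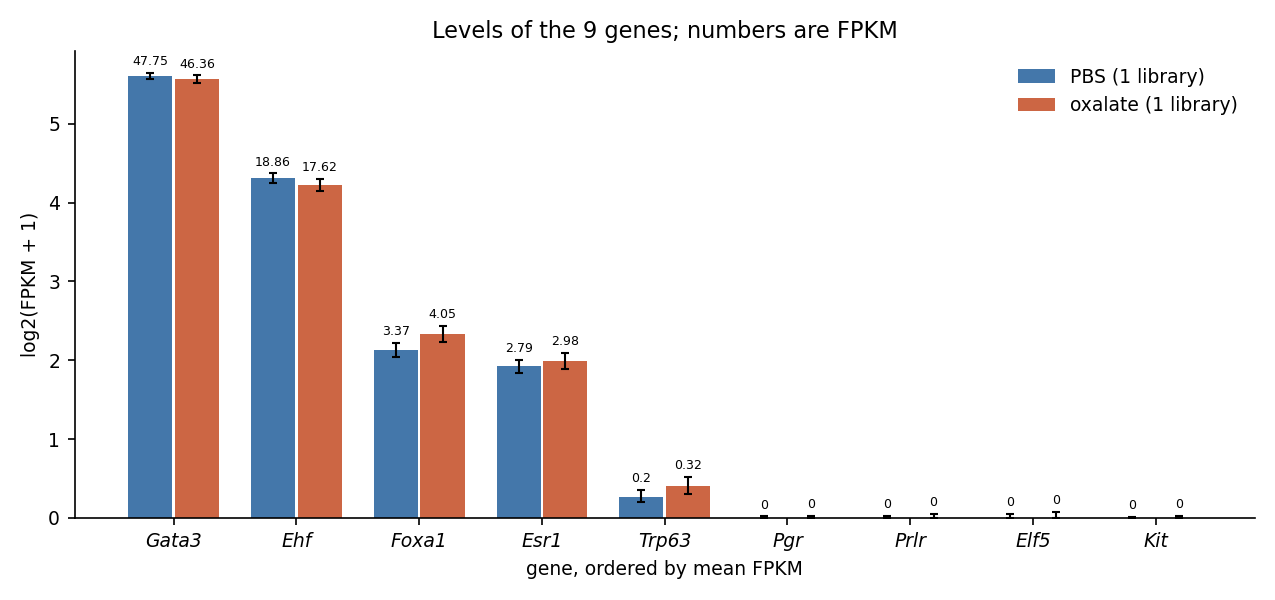
Level of each of the 9 genes as log2(FPKM + 1) in the PBS library (blue) and the oxalate library (orange), ordered by mean FPKM, with the FPKM printed above each bar. Error bars are 95% counting intervals from estimated reads, and for genes at 0 the limit that 0 reads allow. Gata3 stood at 47.75 and 46.36 FPKM, and the 4 genes on the right were at 0 in both libraries.

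The stretch just before a RefSeq transcription start was examined for the letters CG, since promoters of widely used genes are often dense in this dinucleotide. RefSeq windows on GRCm38.p6 were matched for 7 of the 9 genes, and Ehf and Trp63 had no entry. A window was called CG-rich when the 250 bases before the start held at least 50% G and C and at least 0.6 of the CG count that its base composition would give. By this measure the windows of Gata3, Foxa1 and Kit were CG-rich and those of Esr1, Pgr, Prlr and Elf5 were not. Esr1, Prlr, Elf5 and Kit had several windows, which were called alike within each gene, and only a single window per gene is printed. The other Esr1 window, from 4611739, held 4 CG, and the other Prlr windows held 2 each. The printed windows of Gata3, Foxa1 and Esr1 precede RefSeq starts that lie inside the GENCODE span of the gene. Windows are printed for the CG-rich genes that were transcribed (Gata3, Foxa1), the CG-rich gene listed at 0 (Kit), the transcribed gene with few CG (Esr1) and a pair of receptors with few CG listed at 0 (Pgr, Prlr). Each is written 5′ to 3′ on the gene's strand with CG in capitals, and bases inside an annotated exon of the gene were left off.
Gata3, chr2:9878601-9878850, minus strand: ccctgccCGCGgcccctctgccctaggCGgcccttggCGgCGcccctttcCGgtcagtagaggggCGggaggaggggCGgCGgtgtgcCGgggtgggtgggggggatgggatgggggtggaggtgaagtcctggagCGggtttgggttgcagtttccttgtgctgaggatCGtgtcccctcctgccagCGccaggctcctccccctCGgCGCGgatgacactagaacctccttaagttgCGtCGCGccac
Foxa1, chr12:57546122-57546361, minus strand: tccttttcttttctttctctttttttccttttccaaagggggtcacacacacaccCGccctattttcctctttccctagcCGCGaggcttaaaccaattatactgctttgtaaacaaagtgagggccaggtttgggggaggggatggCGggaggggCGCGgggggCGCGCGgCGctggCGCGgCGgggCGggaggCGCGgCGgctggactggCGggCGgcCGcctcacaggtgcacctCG
Kit, chr5:75574737-75574915, plus strand: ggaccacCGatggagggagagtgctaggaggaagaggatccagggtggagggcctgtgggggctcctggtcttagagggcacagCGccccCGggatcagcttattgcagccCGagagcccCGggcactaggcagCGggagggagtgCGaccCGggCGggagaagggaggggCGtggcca
Esr1, chr10:4709908-4710154, plus strand: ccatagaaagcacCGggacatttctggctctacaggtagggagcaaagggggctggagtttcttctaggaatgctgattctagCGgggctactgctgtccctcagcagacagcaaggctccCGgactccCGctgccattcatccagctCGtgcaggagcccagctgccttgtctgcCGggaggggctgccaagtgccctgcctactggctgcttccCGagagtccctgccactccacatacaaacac
Pgr, chr9:8899583-8899832, plus strand: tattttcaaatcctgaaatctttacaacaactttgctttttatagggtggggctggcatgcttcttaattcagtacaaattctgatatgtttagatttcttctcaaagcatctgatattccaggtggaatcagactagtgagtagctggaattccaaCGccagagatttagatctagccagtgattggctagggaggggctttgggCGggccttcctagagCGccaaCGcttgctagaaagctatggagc
Prlr, chr15:10176988-10177237, plus strand: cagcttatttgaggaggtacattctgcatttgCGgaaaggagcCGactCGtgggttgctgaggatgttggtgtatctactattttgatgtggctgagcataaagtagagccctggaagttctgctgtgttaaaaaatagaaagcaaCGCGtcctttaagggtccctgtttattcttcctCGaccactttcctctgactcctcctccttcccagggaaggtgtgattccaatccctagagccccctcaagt

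The Gata3 stretch held 19 CG and the Foxa1 stretch 21, against 4 in Pgr and 6 in Prlr. Esr1, which was transcribed, held 7. Elf5, listed at 0, is not printed. Its window from 103423818 held 8 CG, more than the Esr1 stretch, and that from 103411848 held 2. The printed Kit stretch held 10 in 179 bases. The CG-rich call of Kit rests on whole windows, with the exon bases that are not printed. The whole window of that stretch held 17 CG. This was 0.601 of the count that its base composition would give, just past the cutoff of 0.6. The other Kit window held 18 CG, at 0.631. The Gata3 window was as near to the cutoff, at 0.633, whereas that of Foxa1 was at 0.887. The printed part of Kit alone was not tested. In the whole table, 73.3% of the 8157 genes with a mean of at least 1 FPKM and a window had a CG-rich one, against 14.6% of the 5797 genes listed at 0 in both libraries. Of all 32851 windows 31.0% were CG-rich. Gata3 and Foxa1 lay with the larger share of transcribed genes, Esr1 with the smaller, and Kit with the smaller share of silent ones. The count of these letters is a description of the reference sequence and not of methylation in 4T1 cells.

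Among the hormone receptors, Esr1 (ENSMUSG00000019768, chromosome 10, 4611593 to 5005614, GENCODE M21 on GRCm38), which encodes oestrogen receptor alpha, was at 2.79 FPKM in the PBS library and 2.98 FPKM in the oxalate library. Its log2 fold change, log2((oxalate + 1)/(PBS + 1)), was 0.071. In each library about 58% of all genes were lower than Esr1 (58.1% and 58.4%), so its transcript was present at a low level in both. Pgr (ENSMUSG00000031870, chromosome 9, 8899833 to 8968611), which encodes the progesterone receptor and is a classical target of the oestrogen receptor, was listed at 0 in both libraries. Prlr (ENSMUSG00000005268, chromosome 15, 10177238 to 10349180), the prolactin receptor of the cytokine receptor family, was also listed at 0 in both. Prlr overlaps Gm21973, a protein-coding gene on the same strand without a value here. How reads in an overlap were assigned is not given in the sources used here. At the depth estimated from the values, 0 reads allow up to 0.0122 FPKM with PBS and 0.0189 FPKM with oxalate for Pgr. For Prlr the same limits were 0.0204 and 0.0319 FPKM. These limits are set at the mean coding transcript length, would be wider for a shorter transcript, and cover counting error only. They also leave out rounding. With values given to 2 decimals, a lone read of a long gene such as Pgr or Kit could be listed as 0 with PBS.

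The luminal factors were both transcribed. Gata3 (ENSMUSG00000015619, chromosome 2, 9857078 to 9890034), a zinc finger factor needed to keep luminal cells differentiated, went from 47.75 FPKM (PBS) to 46.36 FPKM (oxalate), and its log2 fold change was -0.042. It was above 89.8% of all genes with PBS and 89.6% with oxalate. Foxa1 (ENSMUSG00000035451, chromosome 12, 57540628 to 57546916), a pioneer factor that opens chromatin for the oestrogen receptor, was at 3.37 FPKM in the PBS library and at 4.05 FPKM in the oxalate library. Its log2 fold change of 0.21 was the largest of the 4 genes with a mean of at least 1 FPKM. Of the 10267 genes past that filter, 84.3% had a smaller change in either direction than Foxa1. The level of Gata3 was 14.2 times that of Foxa1 with PBS and 11.4 times with oxalate, and 17.1 and 15.6 times that of Esr1. Gata3 overlaps 4930412O13Rik on the opposite strand and 9230102O04Rik on the same strand, which were at 0.71 and 1.77 FPKM with PBS and at 0.82 and 0.83 FPKM with oxalate. Whether reads were counted by strand is not given in the sources used here.

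The ETS pair went apart although the genes lie side by side. Ehf (ENSMUSG00000012350, chromosome 2, 103263433 to 103303278), an ETS factor of epithelia, had 18.86 FPKM (PBS) and 17.62 FPKM (oxalate), and its log2 fold change was -0.093. It was above 78.3% and 77.3% of all genes. Elf5 (ENSMUSG00000027186, chromosome 2, 103411688 to 103450989), which directs alveolar and progenitor fate, was listed at 0 in both. Here 0 reads allow up to 0.0331 FPKM with PBS and 0.0516 FPKM with oxalate. The gap from the end of Ehf to the start of Elf5 is 108.4 kb and holds no protein-coding gene. Cat, the catalase gene next to Elf5 on its other side, was at 41.81 and 41.61 FPKM, so that both protein-coding neighbours of Elf5 were transcribed.

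Trp63 (ENSMUSG00000022510, chromosome 16, 25683763 to 25892102), which encodes the basal factor p63, had 0.2 FPKM (PBS) and 0.32 FPKM (oxalate). They correspond to an estimated 41 and 42 reads, so the gene was detected in each library but did not pass the filter of 1 FPKM. Trp63 has 8 coding transcripts, and a value per gene does not tell its isoforms apart. Kit (ENSMUSG00000005672, chromosome 5, 75574916 to 75656722), the receptor tyrosine kinase for stem cell factor, was listed at 0 in both, where 0 reads allow up to 0.0101 and 0.0157 FPKM. In RNA of a whole culture, fewer cells of a type and less RNA per cell cannot be told apart.

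The order Gata3, Ehf, Foxa1, Esr1, Trp63 had no replicate spread to be judged by, and only its counting error could be given. Foxa1 and Esr1 were the closest neighbours. With PBS the 95% counting interval of Foxa1 ran from 3.11 to 3.65 FPKM and that of Esr1 from 2.58 to 3.01 FPKM. With oxalate they ran from 3.69 to 4.43 FPKM and from 2.70 to 3.27 FPKM. The intervals of these neighbours did not overlap in either library. The 4 genes at 0 cannot be ordered.

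Of the 9 genes, 4 passed the filter of a mean of at least 1 FPKM (Esr1, Gata3, Foxa1, Ehf) and were set against all genes past it. Esr1 and Foxa1 were higher with oxalate, and Gata3 and Ehf were lower. Among all genes 50.6% were higher with oxalate. None of the 4 changed 2-fold or 1.5-fold, against a background of 0.653% of the 10267 genes at 2-fold and 1.99% at 1.5-fold. Their median log2 fold change was 0.014, and that of all genes past the filter was 0.0031. The median size of a change over all these genes, in either direction, was 0.087 on the log2 scale. Gata3 and Esr1 changed by less than that, and Ehf and Foxa1 by more.

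**Figure D2:**
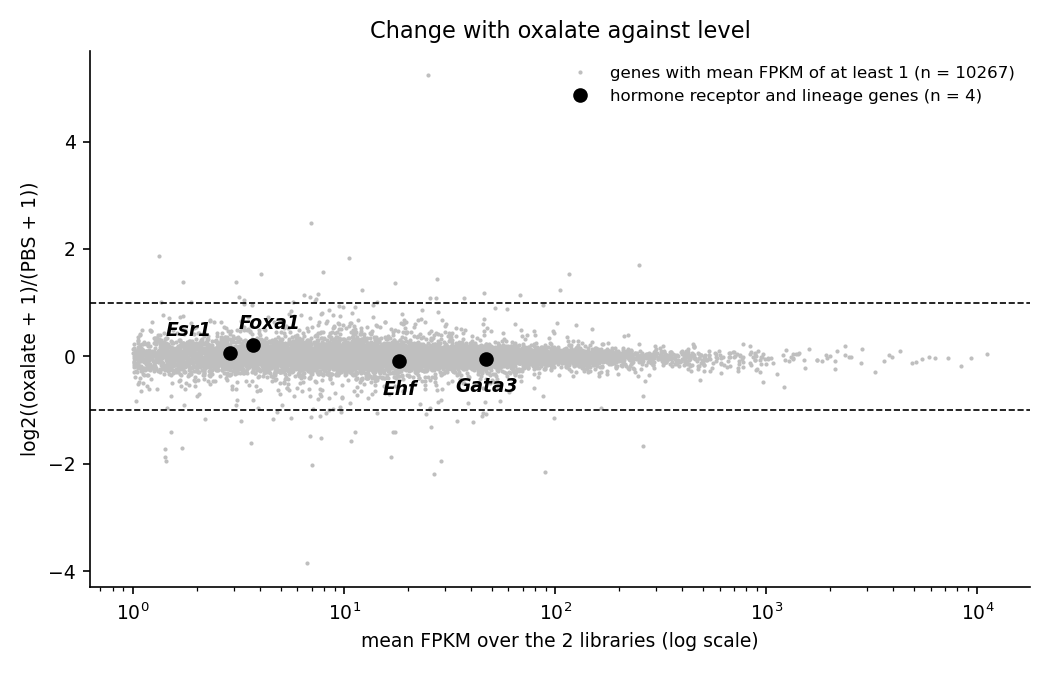
Log2 fold change with a pseudocount of 1 (vertical) against mean FPKM on a log scale (horizontal) for the 10267 genes with a mean of at least 1 FPKM (grey) and the 4 genes of the group past that filter (black). Dashed lines mark 2-fold. The 4 genes lay between -0.093 and 0.21, inside the cloud of all genes.

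The pseudocount of 1 shrinks the change of low genes, so the plain ratio was also given with an interval from estimated reads. These intervals are exact (Clopper-Pearson) at 95%, compare the 2 libraries and not the conditions, and cover counting error only. For Gata3 the log2 ratio of oxalate to PBS was -0.043, with an interval from -0.11 to 0.021. For Ehf it was -0.098, from -0.20 to 0.0055, and for Esr1 0.095, from -0.085 to 0.27. At the mean transcript length, differences of these 3 genes were not detectable at this depth.

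Foxa1 had a log2 ratio of 0.27, from 0.088 to 0.44, which is 1.20 times the PBS level with bounds of 1.06 and 1.36. Its interval lay above 0 and well short of 2-fold. Foxa1 has 1 coding transcript, so this interval does not depend on the length chosen. Trp63 had a log2 ratio of 0.68, from 0.018 to 1.33. With the shortest coding transcript in place of the mean length its interval ran from -0.33 to 1.61, and with the longest from 0.15 to 1.22. The side of 0 on which the lower bound of Trp63 lies therefore moved with the length. With the longest transcript the interval of Ehf ran from -0.17 to -0.031, below 0, whereas those of Gata3 and Esr1 held 0 with all 3 lengths.

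**Figure D3:**
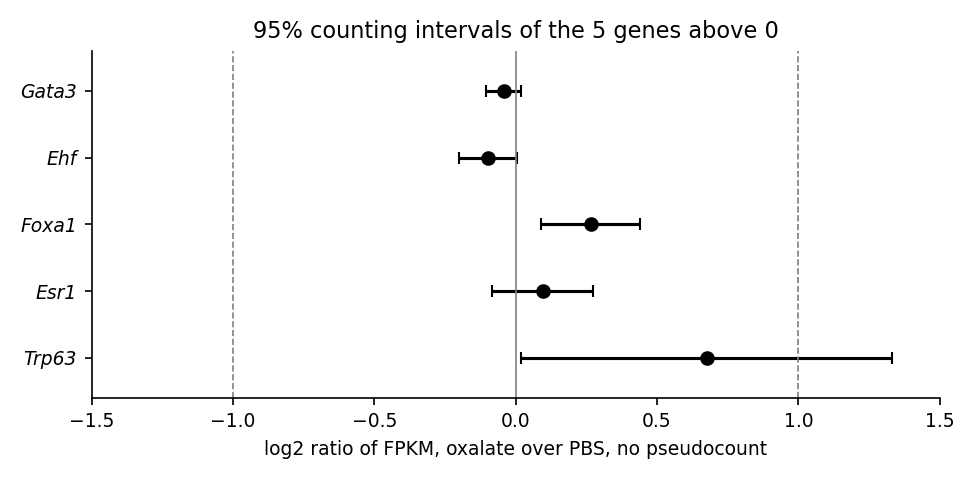
Log2 ratio of FPKM, oxalate over PBS without a pseudocount, for the 5 genes above 0 in both libraries. Bars are exact 95% intervals of the estimated reads (mean coding transcript length), the solid line marks no change and dashed lines mark 2-fold. Only the interval of Trp63, from 0.018 to 1.33, reached past 2-fold.

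Relatives of each gene place these levels in their families. Of 8 steroid and oestrogen-related receptors, 3 had a mean of at least 1 FPKM. Esrra, an orphan receptor of energy metabolism, was at 37.25 and 38.86 FPKM, 13.4 and 13.0 times Esr1. Nr3c1, the glucocorticoid receptor, was at 15.96 and 17.21 FPKM. Esrrg was at 0 in both. Esr2, which encodes oestrogen receptor beta, had 0.01 FPKM (PBS) and 0.27 FPKM (oxalate), an estimated 2 and 32 reads. The log2 ratio of Esr2 was 4.75, with a counting interval from 2.67 to 7.75 that leaves out the rounding of the 0.01. On the scale with a pseudocount its log2 fold change was 0.33, and it was below the filter.

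Gata3 was the highest of the GATA factors. Gata4, a factor of heart and gut, had 8.17 FPKM (PBS) and 13.18 FPKM (oxalate), so that its log2 fold change of 0.63 was past 1.5-fold. Gata2 was at 0.13 and 0.29 FPKM, and Gata1, Gata5 and Gata6 were at 0.01 or below. The GATA3 partners Zfpm1, Lmo4 and Ldb1 were transcribed, Ldb1 at 48.96 and 58.31 FPKM. In that list of 10 genes 6 passed the filter, 2 of them higher and 4 lower with oxalate. Foxa2 and Foxa3, the relatives of Foxa1, were at 0 in both libraries. Of the other luminal factors listed with Foxa1, Tfap2a was at 25.25 and 28.86 FPKM and Tfap2c at 0.12 and 0.11 FPKM, whereas Tfap2b, Tbx3 and Spdef were at 0.

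Among 11 ETS factors 9 passed the filter, 4 higher and 5 lower, and Elf5 and Spdef were the ones at 0. The highest were Ets2, Ets1 and Etv4. Elf3, like Ehf an ETS factor of epithelia, had 10.2 FPKM (PBS) and 13.95 FPKM (oxalate), and its log2 fold change was 0.42. Elf2 had a log2 fold change of 0.49 and Etv5 one of -0.41. Trp53, which encodes p53, was at 23.93 and 23.56 FPKM, 120 and 73.6 times Trp63, and Trp73 was at 0. Kitl, the ligand of KIT, was at 7.14 and 7.81 FPKM in cells that listed its receptor at 0. Of the kinases related to Kit, Csf1r was at 4.93 and 5.18 FPKM, Pdgfra at 1.88 and 1.93 FPKM, and Flt3 at 0.

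**Figure D4:**
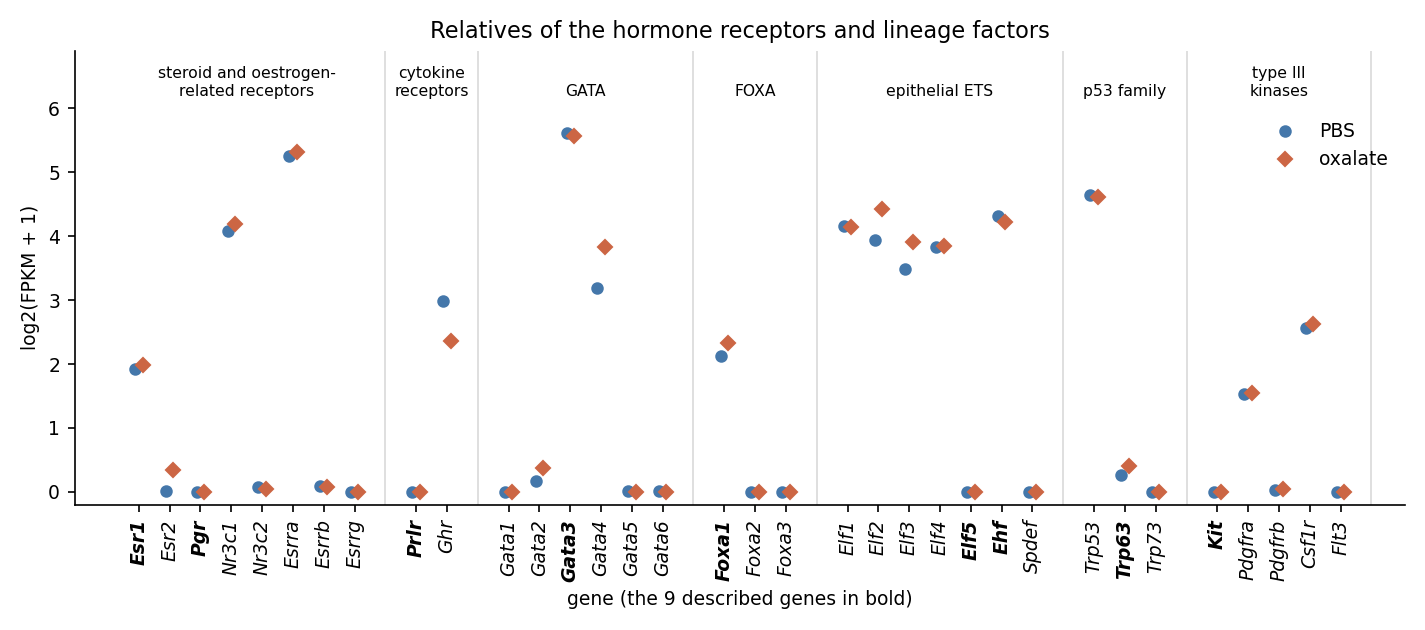
Level as log2(FPKM + 1) of the 9 genes (bold) and their relatives in the PBS library (blue circles) and the oxalate library (orange diamonds), grouped by family. Each of the 4 genes at 0 had a transcribed relative, such as Nr3c1 at 15.96 and 17.21 FPKM beside Pgr at 0.

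Partners and targets of the receptors were read from lists. In the list of prolactin signalling, which holds the ligand Prl, both Prlr and Ghr, and the kinases, STAT5 factors and SOCS inhibitors, 9 of 11 genes passed the filter, 4 higher and 5 lower. Prl and Prlr were at 0. Jak1, Jak2 and Stat5b, which carry the signal of cytokine receptors, were the highest of them, with Jak2 at 8.45 and 8.24 FPKM. Ghr, the growth hormone receptor and a relative of Prlr, had 6.9 FPKM (PBS) and 4.11 FPKM (oxalate). Its log2 fold change of -0.63 was past 1.5-fold. Of 12 milk and secretory genes 8 were at 0, among them Csn2, Wap and Lalba. Csn3 had 0.07 FPKM (PBS) and 0 (oxalate). Plin2, Xdh and Btn1a1, which package milk fat, passed the filter, with Plin2 at 106.71 and 108.98 FPKM and Btn1a1 at 4.09 and 3.38 FPKM. Of these, Plin2 and Xdh are also used outside the gland.

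Of 12 oestrogen receptor targets 8 passed the filter, 3 higher and 5 lower, with a median log2 fold change of -0.015. The highest were Ccnd1 (298.86 and 301.26 FPKM), Igfbp4 (195.75 and 180.5 FPKM) and Ctsd (83.7 and 94.79 FPKM), which other signals also control. Xbp1 (30.15 and 26.84 FPKM), Areg (26.16 and 24.41 FPKM), Rara (15.81 and 15.66 FPKM), Nrip1 (9.97 and 9.84 FPKM) and Myb (1.34 and 1.55 FPKM) passed it too. Greb1 had 0.03 FPKM (PBS) and 0 (oxalate), Pdzk1 had 0.02 and 0.04 FPKM, and Tff1 and Tff3 were at 0 in both. Activity of the receptor was not tested. Of 6 progesterone and paracrine targets only Fkbp5 passed the filter (11.67 and 11.17 FPKM), and Tnfsf11, Calca and Cited1 were at 0. All 7 nuclear receptor cofactors passed it, 5 higher and 2 lower, led by Ncor1, Ep300 and Ncoa2. The list of p63 targets also holds the p53 family, and activity of p63 was not tested. Of its 10 genes 8 passed the filter, Trp53 included, 6 higher and 2 lower, led by Perp, Krt14 and Itgb4. Csf1r, Kitl and Pdgfra were the 3 of 6 genes past it in the list of Kit relatives, each higher with oxalate by less than its counting error: the intervals of the log2 ratio ran from -0.10 to 0.24 for Csf1r, from -0.026 to 0.28 for Kitl and from -0.21 to 0.29 for Pdgfra.

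Lineage markers were read beside the 9 genes. The 16 luminal markers summed to 2972.63 FPKM with PBS and 3016.73 FPKM with oxalate, and the 16 basal and myoepithelial markers to 330.1 and 332.41 FPKM. Of the 16 luminal markers 13 passed the filter, 8 higher and 5 lower with oxalate. The simple-epithelial keratins Krt7 (703.31 and 699.04 FPKM), Krt8 (401.94 and 429.31 FPKM) and Krt18 (394.82 and 405.07 FPKM) led them, and Epcam was at 125.71 and 125.33 FPKM. Prom1 was at 0 in both libraries. Of Kit, Elf5, Ehf and Aldh1a3, which were set together as luminal progenitor markers although Ehf is used more widely in epithelia, Ehf was above 0 and the others were at 0. Of 16 basal and myoepithelial markers 6 passed the filter, 4 higher and 2 lower, led by Procr, Vim and Krt14. Most of the basal sum came from these genes, with Procr at 170.08 and 175.14 FPKM and Vim at 74.58 and 75.3 FPKM. Sums led by a few genes do not measure the share of a lineage. Krt14, the keratin of basal cells, was at 74.61 and 71.09 FPKM, and Krt8 was at 5.39 and 6.04 times its level. The usual partner of keratin 14, encoded by Krt5, was at 0 with PBS and 0.03 FPKM with oxalate. Acta2, the actin of myoepithelial cells, was at 0.35 and 0.17 FPKM.

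Other cell types were looked for with 3 lists. Of 8 leukocyte markers 5 were at 0, including Ptprc and Cd3e, and the list summed to 12.76 FPKM with PBS and 12.29 FPKM with oxalate, nearly all from Cd68 and Csf1r. The 8 endothelial and adipocyte markers summed to 0.14 and 0.41 FPKM. The 8 fibroblast markers summed to 147.32 and 147.83 FPKM, of which Col1a1 gave 143.48 and 144.61. Lum and Fap were at 0. Col1a2 was below the filter, at 0.88 FPKM (PBS) and 0.33 FPKM (oxalate). Its log2 ratio was -1.42, with a counting interval from -1.99 to -0.90.

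**Figure D5:**
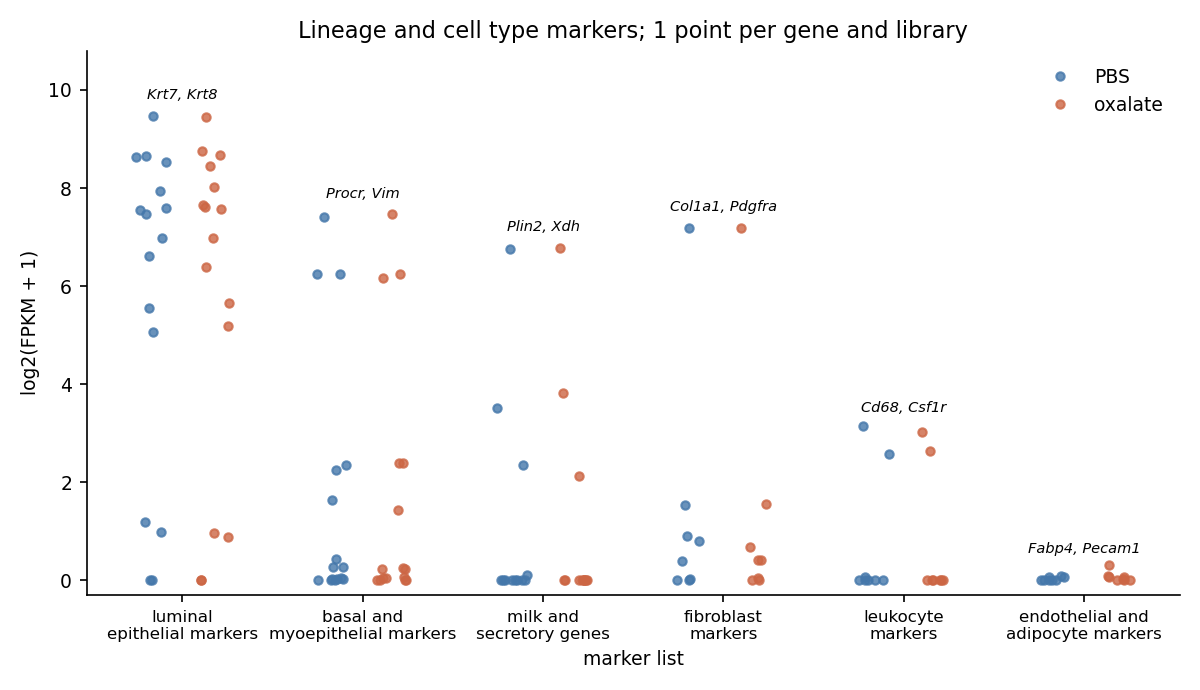
Level as log2(FPKM + 1) of each gene in 6 marker lists, 1 point per gene and library (PBS blue, oxalate orange, spread sideways to be seen), with the highest 2 genes of each list named. Most luminal markers stood high, up to Krt7 at 703.31 FPKM, whereas 8 of 12 milk genes and 5 of 8 leukocyte markers were at 0.

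Over the 16 lists, 143 genes were not among the 9, and 75 of them passed the filter. With oxalate, 45 of the 75 were higher and 30 lower, with a median log2 fold change of 0.028, beside 50.6% higher and a median of 0.0031 over all genes past the filter. None changed 2-fold and 2 changed 1.5-fold (Gata4 and Ghr), which is 2.67% beside the 1.99% of all genes. By the distance of their log2(FPKM + 1) values over both libraries, the listed genes nearest to the group were Jak1 for Gata3 (0.058), Stat5a for Foxa1 (0.093), Elf1 for Ehf (0.17) and Socs2 for Esr1 (0.20). With 2 libraries this likeness is one of level and not of a pattern over samples.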

How the data were processed

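One sequencing library was made from 4T1 cells after 48 h in PBS and another after 48 h in potassium oxalate, from mRNA captured with oligo(dT) beads and reverse transcribed with random primers. For each Ensembl gene and library the authors deposited an FPKM value rounded to 2 decimals. Their processing notes name Bowtie2 2.2.8 and TopHat2 2.1.1; the quantification tool, genome build, annotation and filters are not given in the sources used here. FPKM is scaled to each library's total, so a shift of that total would move every gene.

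Symbols were found for 21848 of 21911 identifiers in GENCODE M21 (GRCm38), and coordinates come from it. The fold change was log2((oxalate + 1)/(PBS + 1)), over genes with a mean of at least 1 FPKM. No test of the conditions was possible. The members and lists were chosen with earlier results of these data known. Genes named are the 9 members, their relatives, the 3 highest genes of each list and list genes past 1.5-fold. The listed gene nearest in level to each member is also named. Further list genes (such as Greb1, Areg, Acta2 and Csn3) were named after their values were seen. So was Cat, which is in no list and was read as a neighbour of Elf5. A pair of genes that the lists once held is not reported here.

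Depth was estimated from the steps of low FPKM values. In genes with 1 transcript, the product of FPKM and length in kb moved in steps of 0.0176 (PBS) and 0.0274 (oxalate), which correspond to about 56818200 and 36469700 reads. In short genes with more than 1 coding transcript, the mean of their lengths gave values within 0.2 of a whole read for 97.6% of 42 PBS and 91.9% of 37 oxalate values of up to 10 reads. Reads of the members are therefore estimates. A listed 0 was read as a count of 0, which leaves out rounding, and was taken to allow 3 reads. Step, interval and fold calculations were tested on simulated data. Software was Python 3.11.15 with matplotlib 3.10.9, scipy 1.17.1, numpy 2.4.6 and pandas 2.3.3.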

Additional observations from a re-analysis of the deposited data

How the results depend on the processing

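No paired analysis was possible because PBS and oxalate were sequenced in 1 library each, and for the same reason no replicate could be left out. The count of 0 members changed 2-fold stayed at 0 with pseudocounts of 0.1 and 0.01, after both rescalings, with other filters (none, 0.1 and 5 FPKM) and at 1.5-fold. With a pseudocount of 0.01, no filter and 1.5-fold together, a setting chosen after seeing the data, it was 1 (Trp63), beside 2681 of all 21911 genes; at 2-fold that pseudocount without a filter gave 0. The median member log2 fold change of 0.014 became -0.067 at a mean of at least 5 FPKM, where only Gata3 and Ehf are left. Elsewhere it ran from 0 (no filter) to 0.071 (mean of at least 0.1 FPKM). Under the 2 pseudocounts and both rescalings, 20 of 20 log2 fold changes of the 5 members above 0 moved by less than 0.5 of the width of their counting interval; that of Trp63 rose to 0.65 with a pseudocount of 0.01. Rescaling to the same sum moved the median of all genes to 0.023. Estimated reads of the 4 members above 0 with several coding transcripts are proportional to the length used, so they had to move with the longest or shortest transcript. Those of Ehf with PBS went from 2037 to 4789 or 568. Over all genes, 67 past 2-fold became 97 and 100 with the smaller pseudocounts and 204 at 1.5-fold. Depth limits Trp63, with an estimated 41 and 42 reads, and the genes at 0.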
